A study of Mus musculus with 36 samples.

Results

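Assay Mm00472168_m1, 1 of 224 TaqMan assays on a custom real-time PCR panel, was followed across samples of mouse ileal mucosa, the inner layer of the lower small intestine, taken under 4 states of bacterial colonisation. It was chosen by its measured levels, which were high in mice with a complex microbiota and slightly lower than germfree in mice with a single bacterial strain. The manufacturer's catalogue assigns the assay to Cyp2c55; the deposited table gives only the assay ID, 0 of the 224 IDs were found in the gene table at hand, and the assignment could therefore not be checked against the files. The samples were 9 germfree mucosae (no microbes, the study's control), 9 from mice mono-associated with E. coli CEC, 9 from mice mono-associated with E. coli Nissle, known as a probiotic, and 9 from conventional mice, whose gut holds a complex microbiota. The labels give the number 21 for colonisation of the mono-associated mice, without a unit, and do not expand CEC. Mouse strain, sex and age are not stated in the labels. The design text speaks of pooled RNA while the titles number the samples singly, so each sample may be 1 mouse or a pool, and the spread between samples may be partly technical.

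Cyp2c55 encodes a cytochrome P450 of the Cyp2c subfamily, haem-containing enzymes of the endoplasmic reticulum that oxidise fatty acids such as arachidonic acid as well as drugs and other foreign compounds. The gene is known for its expression in the intestine and can be induced by compounds that activate the xenobiotic receptors CAR and PXR. Its transcripts are read here in whole mucosa, so a change in the number of cells that express the gene and a change of RNA per cell cannot be told apart. In RefSeq, Cyp2c55 (gene ID 72082) lies on mouse chromosome 19 with all 15 protein-coding Cyp2c genes, between Hells and Cyp2c65. The labels give no probe sequence, and whether the assay also reads a related Cyp2c transcript was not tested.

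To show the DNA ahead of this gene, the stretch that precedes the RefSeq gene record is printed from the GRCm38.p6 promoter table, chr19:39006769-39006939, plus strand, 171 bases. Capitals mark matches, on either strand, to a GATA-type core (GATAA) or a CDX-type core (ATAAA), factors that pattern the intestinal epithelium.

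Cyp2c55 upstream: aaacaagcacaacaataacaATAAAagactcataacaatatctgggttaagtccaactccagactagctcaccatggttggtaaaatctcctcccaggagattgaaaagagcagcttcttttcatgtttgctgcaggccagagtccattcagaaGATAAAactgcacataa

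GATAA occurred 1 time and ATAAA 2 times, and the second ATAAA overlaps the GATAA. Among 32851 promoter windows of the same length in that table, 17.28% held GATAA and 28.92% held ATAAA on either strand. The nuclear receptor half-sites AGGTCA and AGTTCA had 0 matches in these 171 bases and were in 9.73% and 8.77% of the windows. These are letter matches only.

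The assay gave a Ct, the PCR cycle at which the signal crosses a threshold, in 35 of 36 samples. The exception was Nissle replicate 6, in which 47 assays of the first part of the table, this one among them, gave no Ct. A lower Ct stands for more template. In germfree samples the Ct ran from 22.3 to 24.7, with a median of 23.4. In CEC samples it ran from 22.6 to 24.2, with a median of 23.7. In Nissle samples it ran from 23.2 to 25.0, with a median of 24.0. In conventional samples it ran from 18.5 to 21.0, with a median of 19.7. The transcript was thus measurable in germfree mucosa, well before the highest Ct measured on the panel, 32.4, and every conventional sample crossed the threshold earlier than any other sample.

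Levels were compared as log2 relative levels, the panel's average Ct (over 146 assays that gave a value in every sample) minus the Ct of the assay, so that a step of 1 is a doubling if amplification is complete. Conventional samples were highest, at 1.53 ± 0.76 (SD, n = 9), with a lowest value of 0.17, a median of 1.64 and a highest value of 2.81. Germfree samples followed at -1.99 ± 0.73 (SD, n = 9), with a lowest value of -3.33, a median of -2.01 and a highest value of -0.88. CEC samples lay at -2.28 ± 0.75 (SD, n = 9), between -3.17 and -1.01 with a median of -2.59. Nissle samples were lowest, at -2.78 ± 0.52 (SD, n = 8), between -3.63 and -2.14 with a median of -2.71. The order was therefore conventional, germfree, CEC, Nissle, and of the steps between neighbours in that order only the one from conventional to germfree exceeded the spread within groups.

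**Figure D1:**
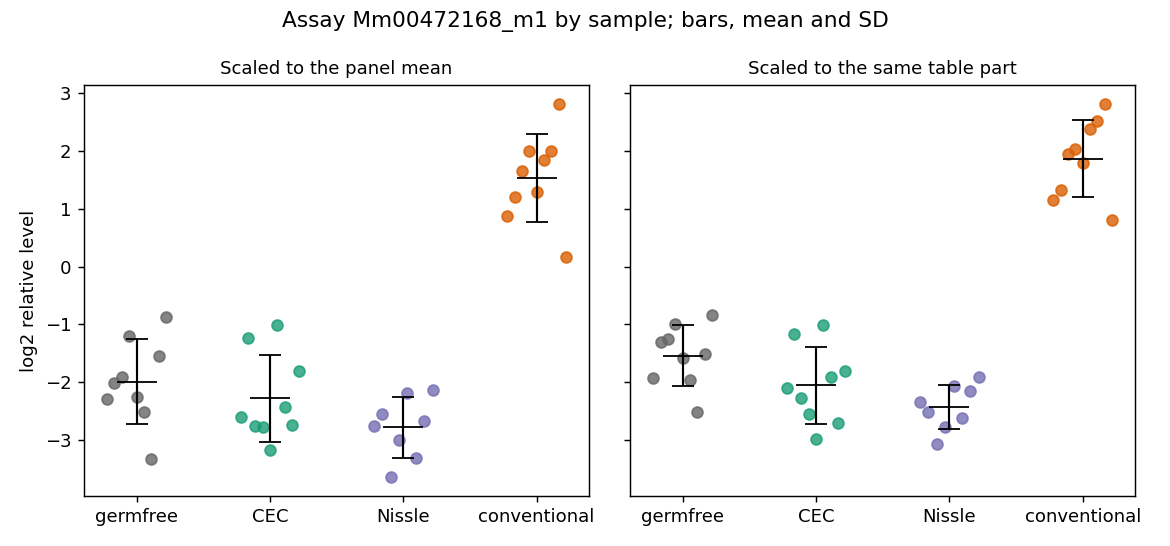
Log2 relative level of assay Mm00472168_m1 in each sample (points) with the group mean and SD (bars), for germfree, CEC, Nissle and conventional samples, scaled to the panel mean (left) or to the 43 assays in the same part of the deposited table (right). All 9 conventional samples lie above all other samples in both panels, and the other 3 groups overlap.

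The conventional mean exceeded the germfree mean by 3.52 log2 units, an 11.5-fold difference, and that of both mono-associated groups averaged by 4.06, a 16.7-fold difference. The lowest conventional sample, replicate 10, stood 1.04 log2 units above the highest sample of any other group, germfree replicate 33. These contrasts chose the assay, so the values are given as a description. Conventional samples lay above every germfree sample for 11 of the 216 assays tested, or 5.09%, and above every sample of all 3 other groups for 3 assays, or 1.39%, of which Mm00472168_m1 was 1. The others, singled out after their values were seen, were Mm00440502_m1 and Mm00441127_m1. The gap between the lowest conventional sample and the highest other sample was 0.49 and 0.39 log2 units for those assays.

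With a single E. coli strain the mean level was below the germfree mean, by far less than the rise in conventional samples. The CEC mean differed from germfree by -0.29 log2 units, a ratio of 0.820, and 6 of 9 CEC samples were below the germfree mean. The Nissle mean differed by -0.79, a ratio of 0.579, and all 8 Nissle samples with a value were below the germfree mean. The groups still overlapped: 1 Nissle sample and 0 CEC samples lay under the lowest germfree sample, and 5 germfree samples lay above the highest Nissle sample. Only 1 germfree sample lay above the highest CEC sample. These differences also belong to the pattern the assay was chosen for and carry no test. The size of the CEC difference leaned on few samples. Leaving out CEC replicate 7 moved it to -0.44. This sample had the highest panel mean Ct of the CEC samples, 21.80, and held the highest CEC level of this assay, -1.01. Leaving out CEC replicate 6 gave -0.17. That sample held the lowest CEC level, -3.17, and had the fewest assays measured of the CEC samples, 198. Among the germfree samples, leaving out replicate 20 gave -0.19, replicate 33 gave -0.15 and replicate 31 gave -0.45. With group medians in place of means it was -0.58, and scaled to the 20 steadiest assays -0.18. The Nissle difference stayed between -0.96 and -0.65 when any 1 sample was left out.

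**Figure D2:**
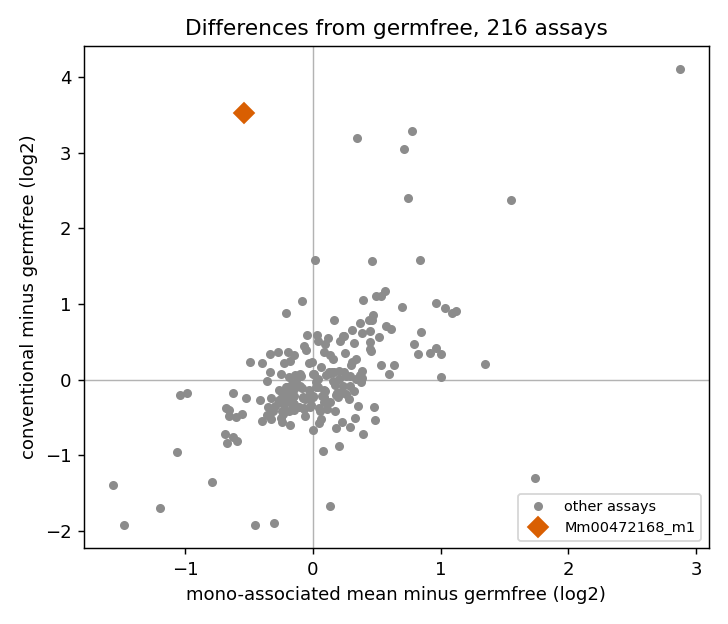
Difference from germfree of the mono-associated mean (x axis, log2) and of conventional samples (y axis, log2) for each of 216 assays; grey points, other assays; orange diamond, Mm00472168_m1. The marked assay lies at -0.54 and 3.52, left of 0 where the other assays with a rise of more than 3 lie right of it; both axes share the germfree samples.

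A conventional mean above germfree, with both mono-associated means below it, was found for 12 of 216 assays, whatever the size of the differences. Of the 216, 16 had a conventional mean more than 1 log2 unit above germfree, and in 2 of these both mono-associated means were below germfree. Besides Mm00472168_m1 this was Mm00600522_m1, named here after its values were seen, at 1.04 in conventional, -0.13 in CEC and -0.05 in Nissle samples relative to germfree. Among the 216 differences the one of Mm00472168_m1 ranked 2 from the top for conventional against germfree and 9 from the bottom for Nissle against germfree. For CEC against germfree it ranked 35 from the bottom. The panel medians for these comparisons were -0.08, 0.04 and 0.08 log2 units. The contrasts counted here are those that chose the assay.

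The strains were compared with each other, a contrast that the choice of the assay did not use. Nissle samples, at a Ct of 24.1 ± 0.617 (SD, n = 8), ran from 23.2 to 25.0. CEC samples, at 23.6 ± 0.608 (SD, n = 9), ran from 22.6 to 24.2, so the groups overlapped in part. The log2 difference, Nissle minus CEC, was -0.50 ± 0.33 (SE), with a 95% confidence interval from -1.18 to 0.18, and did not pass the test (limma, adjusted p = 0.682). The interval still allows a Nissle level well below that of CEC. Of the 216 assays 1, or 0.463%, was called in this comparison (Mm01288989_m1, singled out after its value was seen), and 12 had an unadjusted p under 0.05. The assay called had low levels, with a mean of -9.86 log2 units in Nissle and -8.07 in CEC samples.

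The spread of the level within each colonised group was set against that in germfree samples. The mean absolute deviation from the group median was 0.54 in germfree, 0.55 in CEC, 0.40 in Nissle and 0.57 log2 units in conventional samples. In this measure the difference from germfree passed the test in none of the 3 colonised groups (exact two-sided permutation test, p = 0.960, 0.468 and 0.888 for CEC, Nissle and conventional, adjusted p = 0.960 for each). The pooled SD within groups was 0.70, against a median of 0.53 over the 216 assays, and 59 assays had a higher one. Scaled to the panel mean, the level of the transcript thus varied between samples of 1 group by more than that of the median assay.

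A part of that spread moved with an offset between the 2 parts of the table, which differed from sample to sample. The table lists 224 assays, and Mm00472168_m1 is number 56, in the first of its 2 equal parts. In each sample the mean Ct of the 43 assays of that part measured in all samples was set against the mean of the 103 such assays of the second part. The first minus the second ran from 0.04 to 1.15 cycles in germfree, -0.01 to 0.73 in CEC, 0.06 to 0.97 in Nissle and -0.01 to 0.91 in conventional samples. Its group means were 0.64, 0.32, 0.52 and 0.46 cycles. The highest level of Mm00472168_m1 went with an offset of -0.01 cycles among conventional samples (replicate 9), 0.05 among germfree (replicate 33), -0.01 among CEC (replicate 7) and 0.33 among Nissle samples (replicate 9). The lowest level went with an offset of 0.91 among conventional (replicate 10), 1.15 among germfree (replicate 31), 0.81 among Nissle (replicate 3) and 0.28 among CEC samples (replicate 6). In conventional and germfree samples these offsets were near the ends of the group's range. They were not in the highest Nissle sample, where replicates 2 and 5 had smaller offsets, nor in the lowest CEC sample, whose offset was below the CEC mean.

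Over 35 samples the deviations of level and of offset from their group means were negatively related, with Pearson's r at -0.64 and Spearman's rho at -0.64 (permutation test within groups, p = 9e-05 for each, adjusted over 3 relations to 0.000225 and 0.000135). Without the 2 samples farthest out in offset r was -0.61. The raw Ct, with its sign reversed so that higher stands for more template, was then used in place of the scaled level. With it r was -0.62 and rho -0.63 (permutation test within groups, p = 0.00015 and 8e-05, adjusted p = 0.000225 and 0.000135). Without the 2 farthest samples r was -0.57. The scaled level and the offset are both computed from the assays measured in all samples and are not independent measures. Mm00472168_m1 is not among those assays, so its raw Ct does not enter the offset. Scaled to the 43 assays of its own part, the pooled SD of the assay fell from 0.70 to 0.58. The panel median on that scale was 0.51, and 82 of the 216 assays had a higher SD. The relation of the own-part level to the offset was weaker, with r at -0.36 and rho at -0.37 (permutation test within groups, p = 0.0432 and 0.0351, adjusted p the same). Without the 2 farthest samples r was -0.32. The mean of the first part enters this own-part level and the offset with the same sign. Taken alone, that shared term moves their r upward, so r is partly set by the arithmetic. What gives rise to the offset was not tested.

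**Figure D3:**
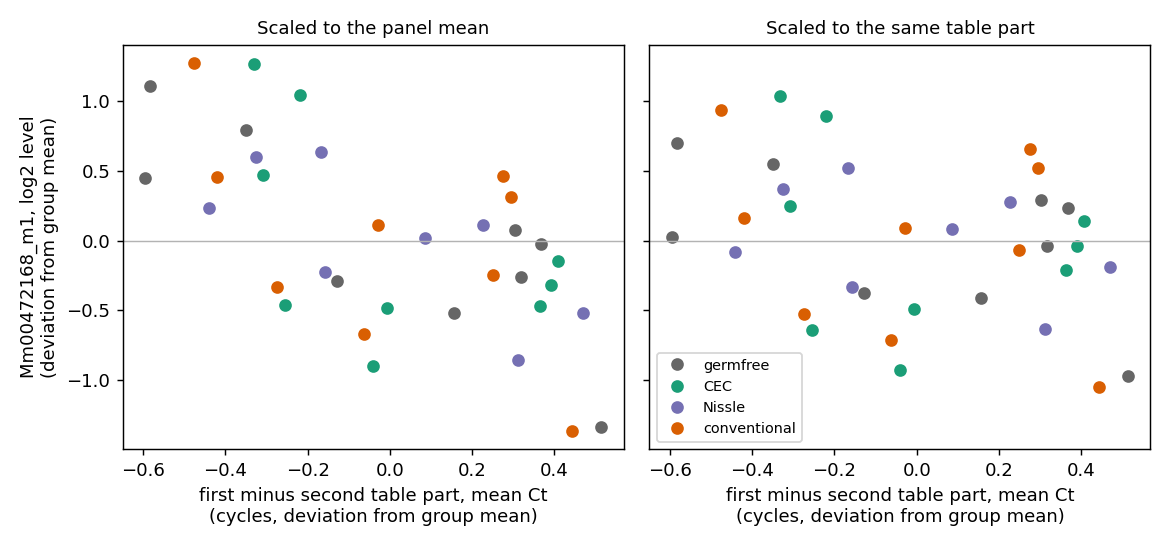
Deviation of the log2 level of Mm00472168_m1 from its group mean (y axis) against the deviation of the offset between the first and second table part (x axis, cycles) in 35 samples coloured by group, scaled to the panel mean (left) or to the same table part (right). Levels fall from left to right in the left panel (r -0.64) and less so in the right panel (r -0.36).

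On that own-part scale conventional samples stood further clear of the others. Conventional samples had a level of 1.86 ± 0.66 (SD, n = 9), germfree -1.54 ± 0.52 (SD, n = 9), CEC -2.05 ± 0.66 (SD, n = 9) and Nissle -2.43 ± 0.39 (SD, n = 8). The gap between the lowest conventional sample and the highest other sample widened from 1.04 to 1.65 log2 units. Of the CEC samples 7 of 9, and of the Nissle samples 8 of 8, were below the germfree mean, and 3 of each were below the lowest germfree sample. The differences from germfree were 3.40 for conventional, -0.51 for CEC and -0.88 for Nissle. The CEC difference was thus over 1.5 times as large as with the panel mean. Such a rescaling moves the assays of a sample alike, and it shifted the panel median by -0.22 log2 units for CEC, -0.12 for conventional and -0.08 for Nissle samples against germfree.

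**Figure D4:**
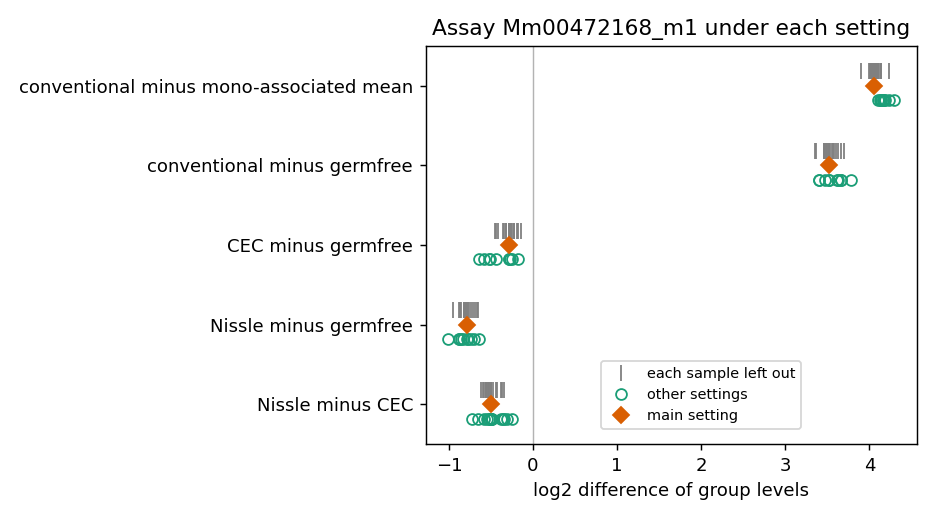
Log2 difference of group levels of Mm00472168_m1 (x axis) for 5 comparisons (y axis) with the main setting (diamonds), other settings (circles) and each sample left out in turn (ticks). Conventional against germfree stays between 3.36 and 3.78, and CEC against germfree between -0.64 and -0.15.

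The assays whose group pattern was most like that of Mm00472168_m1 were found by the root mean square difference of the 3 log2 differences from germfree, over the 4 groups and 216 assays. The nearest was Mm00441127_m1, with a root mean square difference of 0.80. Its log2 relative level lay between 4.54 and 5.30 in germfree and between 6.66 and 8.93 in conventional samples, a difference of 3.19 between the means, and differed from germfree by 0.23 in CEC and 0.46 in Nissle samples. Next was Mm00440616_g1, at 1.09, with differences of 3.04, 0.63 and 0.80. Both resembled the assay in conventional samples and lay on the other side of germfree with the single strains. Their CEC means include 1 far lower sample each, at -0.83 and -1.72, which the SDs of 2.25 and 2.46 reflect.

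Sample-to-sample covariation, which the choice of the assay did not use, was read from the deviations from group means over 35 samples for the 146 assays measured in all samples. After adjustment over the 146 assays, 15 (10.3%) covaried positively with Mm00472168_m1 and 16 (11%) negatively. Of the 15 positive ones 14 were in the first table part, which holds 43 of the 146 assays, the exception being Mm00771682_g1 at 0.50. All 16 negative ones were in the second part, which holds 103. The highest r belonged to Mm00515499_s1, at 0.79 (rho 0.76; permutation p = 1e-05, the smallest that 100000 resamples can give, adjusted p = 0.00146), and r was 0.78 without the 2 farthest samples. Mm00483162_m1 followed at 0.58 (rho 0.57; permutation test, adjusted p = 0.00832; 0.57 without the 2 farthest samples). The lowest were Mm01318974_m1, at -0.65 (rho -0.65; permutation test, adjusted p = 0.00219; -0.67 without them), and Mm01299491_m1, at -0.64 (rho -0.69; permutation test, adjusted p = 0.00511; -0.63 without them).

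With scaling to the same table part, added after seeing the data, 1 positive and 11 negative relations passed among the 146 assays. The positive one was Mm00515499_s1, with r at 0.66 (rho 0.68; permutation test, adjusted p = 0.00183). Mm00483162_m1 no longer passed (r 0.27, permutation test, adjusted p = 0.382). Mm01318974_m1 stayed at -0.64 (permutation test, adjusted p = 0.00183) and Mm01299491_m1 at -0.52 (permutation test, adjusted p = 0.0425). The median r was 0.31 for first-part and -0.11 for second-part assays with the panel mean, and 0.02 and -0.20 with the same-part scaling. Most positive relations of Mm00472168_m1 therefore did not pass with this scaling. It takes from every assay of a sample the mean of the first part, so the offset between the parts stays in the values of second-part assays.

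**Figure D5:**
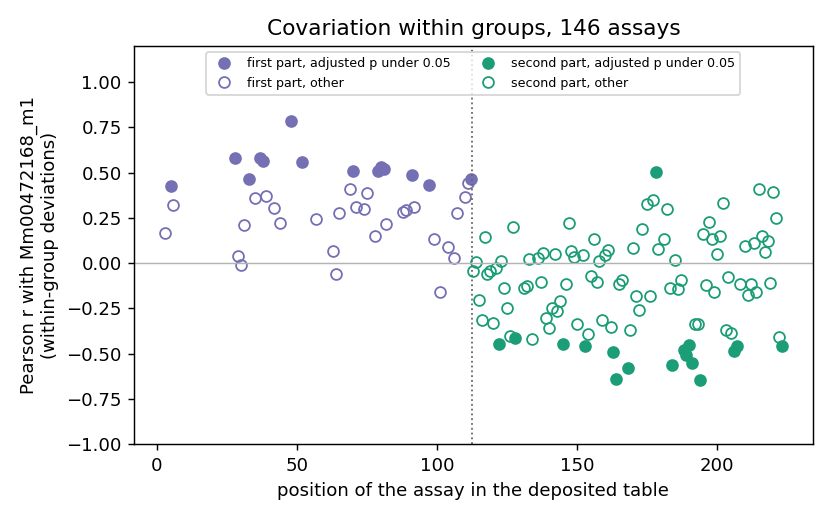
Pearson r between the within-group deviations of Mm00472168_m1 and of each of 146 assays (y axis) by position in the deposited table (x axis; dotted line, boundary between the first and the second part); filled points have an adjusted permutation p under 0.05. Of 15 positive filled points 14 lie in the first part (43 assays), and all 16 negative ones in the second (103 assays).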

How the data were processed

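The deposited values are raw Ct, not normalized by the authors, per the file headers, which call the table a truncated example; per the labels' protocols, mirVana-isolated RNA was run as cDNA on TaqMan OpenArray cards. No source used here states the Ct threshold or the amplification efficiency. Ct 40 was treated as missing (291 wells). The number of assays with a Ct stands in for depth: 175 in Nissle replicate 6, 198 in CEC replicate 6 and 214 to 222 elsewhere. Columns were matched by title and groups taken from the colonisation labels.

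Assays measured in at least 5 samples of every group (216) were fitted together with limma 3.58.1 in R 4.3.3, 1 term per group over all 36 samples, with Benjamini-Hochberg adjustment, two-sided, threshold 0.05; the step was tested on simulated data. Permutation tests used Python 3.11.15 with 100000 resamples within groups, or exact enumeration for the spread. The assay, the lists and the naming rule (the 2 most alike assays, and the 2 highest and 2 lowest in covariation) were chosen with earlier results of these data known. Gene lists and markers of the tissue could not be used, as the table holds no gene names.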

Additional observations from a re-analysis of the deposited data

Results flagged for a closer look

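Relative to the germfree mean every conventional sample of Mm00472168_m1 was higher, with a mean difference of 3.52 log2 units, while every Nissle sample with a value was lower, with a mean difference of -0.79. The opposite directions drew attention here; their difference was not tested, since these contrasts chose the assay and share the germfree samples. In none of the 4 groups did the highest or lowest sample stand apart from the others by the Dixon criterion, the largest gap being 0.33 of the range, for germfree replicate 31.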

How the results depend on the processing

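The log2 differences of Mm00472168_m1 kept their sign under every setting run. Leaving out each sample in turn gave 3.36 to 3.69 for conventional against germfree, -0.45 to -0.15 for CEC against germfree, -0.96 to -0.65 for Nissle against germfree and -0.61 to -0.34 for Nissle against CEC. The 10 other settings gave 3.40 to 3.78, -0.64 to -0.18 and -1.01 to -0.64 for the comparisons with germfree. For Nissle against CEC 15 other settings gave -0.72 to -0.25, the latter with same-part scaling and without CEC replicate 7 and Nissle replicate 6. The -1.01 filled in the missing well of Nissle replicate 6 at 1 cycle above the highest Ct of this assay. For Nissle against CEC the adjusted p (limma or the exact permutation test) ran from 0.576 to 0.883. Scaling without the assay itself equals the main setting, as it is not among the scaling assays.

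With the replicate block Nissle minus CEC was -0.65 (limma, adjusted p = 0.751). The deviations of same-numbered CEC and Nissle samples had r from -0.40 to 0.33 over 8 pairs, with no common sign. The labels do not say what a shared number marks, and whether such samples are related was not tested. The count for Nissle against CEC over the panel, 1, was 0 with the replicate block, quantile normalization, the exact permutation test, filled-in wells, Ct above 28 missing and without CEC replicate 7 and Nissle replicate 6; leaving out 1 sample gave 0 to 2. The cause was not tested.

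The spread of CEC minus that of germfree, 0.0122, changed sign to -0.0629 with raw Ct, -0.0229 with median scaling, -0.0711 with quantile normalization and -0.117 without CEC replicate 7 and Nissle replicate 6, and passed no test. Covarying assays numbered 31 of 146, and 9 of 146 with raw Ct and 12 of 146 with same-part scaling.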
